A study of Mus musculus with 16 samples.

Results

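The genes described here make cholesterol and fatty acids, or control how much of them a cell makes. A list of 34 symbols was taken in pathway order: 5 regulators, 18 measured genes of the sterol arm and 10 genes of the fatty acid arm. Each was read from the probe set annotated to that symbol alone and with the highest mean over 16 arrays, which gave 33 of the 34 genes among 18193 genes in all; Acat2 was not analysed here. The rule for probe sets used no expression difference between groups, but the list was chosen with earlier results of these data known. Shares of all genes given beside counts of members are therefore a description, not a test of the list. All 33 genes lay above the background level of 2.77 on the log2 scale.

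Airway epithelial cells of C57BL/6 mice were cultured at an air-liquid interface, where cells are fed from below and exposed to air above. RNA from 16 cultures was hybridised to 1 Affymetrix expression array each, with 4 arrays per group. The 4 groups were uninjured wild-type, scratched wild-type, uninjured Mmp7-/- and scratched Mmp7-/- cultures, and all cultures went without serum for the 24 hours before harvest. Mmp7 encodes matrilysin, an epithelial metalloproteinase. The comparisons ask how scratching changed expression in each genotype, and how the genotypes differed in each state. The labels used here give neither the time between scratching and harvest nor the animals behind the cultures, so p-values measure only the spread between these cultures, which may be technical.

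Values are log2 intensities, and differences are log2 differences with the standard error (SE) of a limma model fitted to all genes and arrays. A gene is said to rise, fall or differ where its Benjamini-Hochberg adjusted p over 18193 genes was under 0.05. For a gene's other probe sets, adjusted p-values come from a limma fit of 34945 probe sets and are adjusted over all of them. They are therefore not on the same scale as those of the genes. Throughout, n was 4 arrays per group. Array medians lay between 9.36 and 10.2 on the linear scale. The deleted gene checked no label, because Mmp7 read 2.13 to 2.59 on all 16 arrays, wild-type included, which is under background. Epithelial and airway markers were well above background, whereas 3 of 4 adipocyte markers (Adipoq, Cidec and Lep) were at background in every group. Of 5 fibroblast markers, Col1a1 and Col1a2 were at background and 3 were above it, and of 5 leukocyte markers, Ptprc and Cd3e were at background and 3 were above it. Spiked-in control transcripts split the arrays into 3 sets that the labels do not explain, and the genotypes share only the set with the Phe control (4 Mmp7-/- and 2 wild-type arrays). Scratched wild-type array 4 had a wider 3′ to 5′ gap for actin (2.62 log2 against 1.53 to 1.93 on the other 15), and scratched wild-type array 3 and scratched Mmp7-/- array 1 had the lowest upper quartiles of intensity.

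Cells sense sterols through a membrane complex. The transcription factors SREBP1 and SREBP2 (genes Srebf1 and Srebf2) are held in the endoplasmic reticulum by SCAP and the INSIG proteins when sterols are plentiful, and are released, cleaved and sent to the nucleus when sterols are scarce. SREBP2 is known mainly for genes of cholesterol synthesis and SREBP1 for genes of fatty acid synthesis. In airway epithelium these lipids go into the membranes of growing cells and of secretory and ciliated cells.

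SREBPs bind sterol regulatory elements and are known to work with the factors NF-Y and Sp1, so promoters of members were searched for their letters. RefSeq's GRCm38.p6 promoter table, which gives 250 bases before and 50 after each listed start of a gene, held 26 of the 33 members. A gene was counted where any of its listed starts held the letters. The NF-Y box CCAAT, on either strand, was found in 14 of 14 sterol arm genes, 4 of 5 regulator genes and 4 of 7 fatty acid arm genes. The share was 41.1% of all 27025 genes in the table. Srebf1, Insig2, Dhcr7 and Me1 are among the genes counted that also have listed starts without it. The Sp1 box GGGCGG was found in 21 of 26 (80.8%) against 38.2% of all genes, and the E-box CACGTG in 6 of 26 (23.1%) against 8.09%. The sterol regulatory element TCACNCCAC was found in 1 of 26, Hmgcs1, against 1.44% of all genes; the shorter CACNCCAC, which the longer one contains, was found in Insig1 and Hmgcs1 only, against 7.12%. These are matches of letters in a short window, not binding sites.

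The 250 bases before the start are shown for 6 members around which the results below turn: Srebf2, the regulator whose scratch response differed between genotypes on 1 of its 2 probe sets; Hmgcs1, the promoter with the sterol element; Tm7sf2 and Hsd17b7, whose rises after scratching were the largest of the 33 in wild-type cultures; Ebp, the sterol gene that fell; and Fasn, which rose in the fatty acid arm. They are written 5′ to 3′ on the gene's strand, ending at the base before the start. Capitals mark CCAAT or its reverse complement ATTGG and, in Hmgcs1, also the sterol element.
Srebf2 (chr15:82147019-82147268, plus strand): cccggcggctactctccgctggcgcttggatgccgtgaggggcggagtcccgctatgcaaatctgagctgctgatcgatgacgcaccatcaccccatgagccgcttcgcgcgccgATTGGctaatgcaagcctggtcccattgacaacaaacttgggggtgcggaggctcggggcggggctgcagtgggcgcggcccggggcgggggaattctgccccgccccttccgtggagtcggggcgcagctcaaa
Hmgcs1 (chr13:119690101-119690350, plus strand): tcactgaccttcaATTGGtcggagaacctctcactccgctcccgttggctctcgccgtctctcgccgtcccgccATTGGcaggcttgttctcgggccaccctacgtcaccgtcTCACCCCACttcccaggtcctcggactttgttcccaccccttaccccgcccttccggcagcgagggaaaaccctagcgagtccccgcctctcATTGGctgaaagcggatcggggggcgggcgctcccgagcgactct
Tm7sf2 (chr19:6067851-6068100, minus strand): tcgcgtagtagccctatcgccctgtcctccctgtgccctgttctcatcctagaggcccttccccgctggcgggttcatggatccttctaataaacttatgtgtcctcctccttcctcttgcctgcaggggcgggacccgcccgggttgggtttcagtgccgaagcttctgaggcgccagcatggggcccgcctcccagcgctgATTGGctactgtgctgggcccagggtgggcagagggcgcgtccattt
Hsd17b7 (chr1:169969206-169969455, minus strand): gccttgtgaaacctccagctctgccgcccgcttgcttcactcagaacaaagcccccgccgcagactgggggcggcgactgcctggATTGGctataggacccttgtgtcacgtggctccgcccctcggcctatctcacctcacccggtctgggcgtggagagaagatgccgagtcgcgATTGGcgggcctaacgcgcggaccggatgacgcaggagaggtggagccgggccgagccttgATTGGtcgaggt
Ebp (chrX:8193513-8193762, minus strand): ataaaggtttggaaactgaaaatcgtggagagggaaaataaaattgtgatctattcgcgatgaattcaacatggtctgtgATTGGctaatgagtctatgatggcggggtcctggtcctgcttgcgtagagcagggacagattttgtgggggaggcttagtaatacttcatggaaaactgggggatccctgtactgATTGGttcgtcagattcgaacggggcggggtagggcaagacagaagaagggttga
Fasn (chr11:120824548-120824797, minus strand): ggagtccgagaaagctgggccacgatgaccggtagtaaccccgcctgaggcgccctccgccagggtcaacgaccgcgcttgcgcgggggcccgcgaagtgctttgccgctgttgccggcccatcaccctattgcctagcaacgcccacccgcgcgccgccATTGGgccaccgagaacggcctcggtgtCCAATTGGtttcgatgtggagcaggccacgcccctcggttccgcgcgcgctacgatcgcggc
All 6 hold an NF-Y box. Its first base lies at -135 in Srebf2, at -47 in Tm7sf2, and at -165, -73 and -12 in Hsd17b7, counted from the start. Ebp, which fell after scratching, carries NF-Y boxes at -170 and -55.

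After scratching, 8 of the 18 sterol arm genes rose and 1 fell in wild-type cultures, and 11 rose and 1 fell in Mmp7-/- cultures. Leaving out 1 array at a time, 5 to 7 rose in wild-type (5 without uninjured array 1 or 3 or scratched array 1 or 3) and 10 to 12 in Mmp7-/-. Among all genes, 2.55% were called higher and 2.3% lower in wild-type, and 2.27% higher and 2.45% lower in Mmp7-/-. The median difference of the 18 genes was 0.34 in wild-type and 0.48 in Mmp7-/-, where the median of all genes was 0.01 and -0.02. Estimates were above 0 for 17 of 18 genes in wild-type and 16 of 18 in Mmp7-/-. Each difference is taken against its own genotype's uninjured cultures, so the 2 differences share no array. Their SE and p-values share 1 estimate of the spread over all 16 arrays, so the 2 sets of calls are not independent. All 4 scratched arrays were above all 4 uninjured ones for 9 sterol genes in wild-type and 14 in Mmp7-/-, and below them for 1 in each; among all genes 4.21% were separated upward and 5.82% downward in wild-type, and 4.1% and 8.72% in Mmp7-/-. Without 3 arrays that stood apart in signal or RNA quality, 7 sterol genes rose in wild-type and 12 in Mmp7-/-.

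The mean deviation of the 18 sterol genes from their means over all arrays placed every scratched array above every uninjured one. It lay between -0.23 and -0.13 in uninjured wild-type arrays and between 0.14 and 0.26 in scratched ones. In Mmp7-/- cultures it lay between -0.28 and -0.15 uninjured and between 0.10 and 0.25 scratched. The 2 genotypes overlapped in each state.

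**Figure D1:**
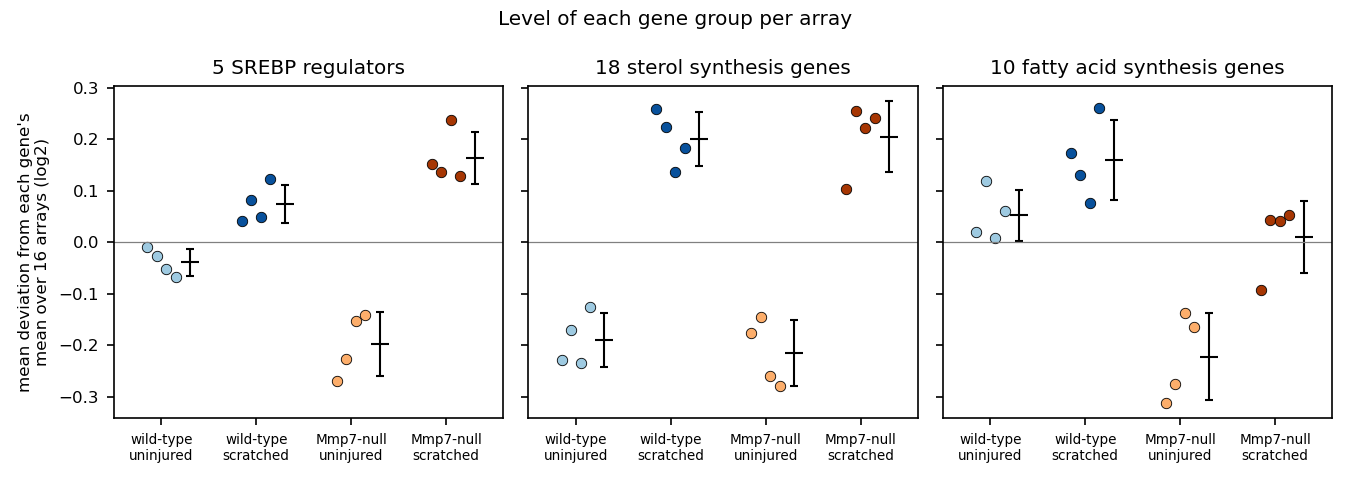
Level of each gene group on each array: the y axis is the mean over the group's genes of the log2 deviation from that gene's mean over 16 arrays, points are arrays, and bars are the group mean ± SD (n = 4). Scratched arrays lie above uninjured ones for the sterol genes in both genotypes, and uninjured Mmp7-/- arrays (-0.31 to -0.14) lie below all other arrays for the fatty acid genes.

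Among the regulators, Insig1 rose in both genotypes. INSIG1 retains the SREBP-SCAP complex in the endoplasmic reticulum, and its gene is itself a known SREBP target. Insig1 read 9.36, 9.60, 9.56 and 9.36 in uninjured and 10.19, 9.99, 9.87 and 9.86 in scratched wild-type arrays. In Mmp7-/- arrays it read 9.28, 9.05, 9.16 and 9.32 uninjured and 9.60, 9.48, 9.87 and 9.67 scratched. Scratched and uninjured arrays did not overlap in either genotype. The difference was 0.51 ± 0.10 (limma adjusted p = 0.00693) in wild-type and 0.45 ± 0.10 (limma adjusted p = 0.017) in Mmp7-/-. In Mmp7-/- the call was lost without uninjured array 2 or 3 (adjusted p up to 0.0587). Its paralog Insig2 and the escort protein gene Scap passed no test, with scratch differences of -0.02 and -0.09 in wild-type and -0.11 and 0.21 in Mmp7-/-.

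Srebf2, the gene of SREBP2, was the member whose scratch response differed between genotypes by the test, on 1 of its 2 probe sets. On its brighter probe set it read 6.94, 6.78, 6.87 and 6.75 in uninjured and 6.91, 6.97, 6.76 and 6.95 in scratched wild-type arrays, which overlap. The Mmp7-/- arrays gave 6.29, 6.53, 6.72 and 6.52 uninjured and 7.26, 7.27, 7.17 and 7.32 scratched. The uninjured Mmp7-/- arrays were thus the lowest of the 16 and the scratched ones the highest. Scratching changed it by 0.06 ± 0.08 (limma adjusted p = 0.779) in wild-type and by 0.74 ± 0.08 (limma adjusted p = 0.00017) in Mmp7-/-. The difference between these responses was 0.67 ± 0.11 (limma adjusted p = 0.0375), and 1 of 33 members was called there, against 0.132% of all genes in either direction and 0.0275% in the same one (24 genes in all, among which Srebf2 ranked 15). Mmp7-/- cultures were lower than wild-type when uninjured (-0.32 ± 0.08, limma adjusted p = 0.0304) and higher when scratched (0.35 ± 0.08, limma adjusted p = 0.0145).

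The other Srebf2 probe set, almost as bright (mean 6.87 against 6.88), did not give this pattern. It read 6.73, 6.86, 6.86 and 6.82 in uninjured and 6.87, 7.05, 6.90 and 7.24 in scratched wild-type arrays, and 6.59, 6.70, 6.61 and 6.71 in uninjured and 7.28, 6.87, 6.92 and 6.85 in scratched Mmp7-/- arrays. Scratched arrays were above uninjured ones in both genotypes on this probe set. Its difference between responses was 0.12 (limma adjusted p = 0.78 over all probe sets), its Mmp7-/- response 0.32 (adjusted p = 0.0972) and its genotype difference in scratched cultures -0.04. On the brighter probe set, the difference between responses lost its call without any 1 of 12 of the 16 arrays (adjusted p up to 0.0882), namely all arrays other than Mmp7-/- uninjured 1 and 3, wild-type uninjured 4 and wild-type scratched 4. With a block for the spike-in set its adjusted p was 0.0594. The uninjured genotype difference lost its call without Mmp7-/- array 1, 2 or 4 or wild-type array 1 or 3 (adjusted p up to 0.0975).

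Srebf1, which encodes SREBP1, read 9.47, 9.37, 9.19 and 9.33 in uninjured and 9.23, 9.45, 9.56 and 9.56 in scratched wild-type arrays. Mmp7-/- cultures read 9.01, 9.14, 9.35 and 9.45 uninjured and 9.84, 9.78, 9.87 and 9.54 scratched. The wild-type groups overlapped and the Mmp7-/- groups did not. It rose in Mmp7-/- cultures by 0.52 ± 0.11 (limma adjusted p = 0.0137), while the wild-type difference was 0.11 ± 0.11 (limma adjusted p = 0.703). The difference between these responses, 0.41 ± 0.15, did not pass (limma adjusted p = 0.508), so they were not shown to differ.

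**Figure D2:**
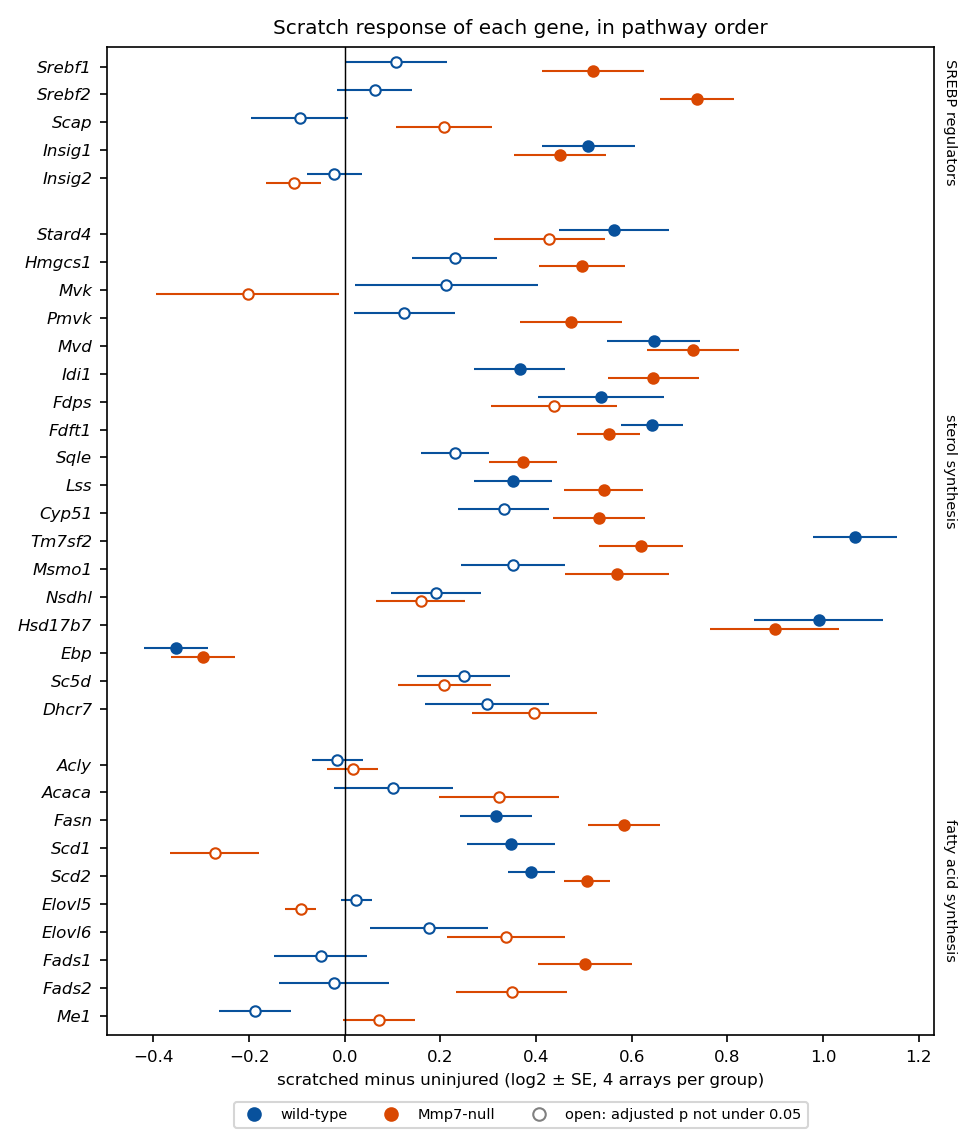
Scratch response of the 33 genes in pathway order: the x axis is scratched minus uninjured in log2 with its SE (4 arrays per group), blue for wild-type and orange for Mmp7-/-, with filled points for adjusted p under 0.05. Sterol genes lie mostly to the right of 0 in both genotypes, Tm7sf2 (1.07) and Hsd17b7 (0.99) farthest in wild-type, and Ebp lies to the left in both.

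At the entry of the sterol arm, Stard4 encodes a cytosolic sterol carrier and Hmgcs1 the synthase that makes HMG-CoA. Stard4 rose in wild-type cultures by 0.56 ± 0.12 (limma adjusted p = 0.0117), and its estimate in Mmp7-/- was 0.43 ± 0.12 (limma adjusted p = 0.0522). Hmgcs1 read 11.56, 11.48, 11.59 and 11.51 in uninjured and 11.82, 11.87, 11.67 and 11.71 in scratched wild-type arrays. In Mmp7-/- arrays it read 11.81, 11.51, 11.39 and 11.36 uninjured and 11.91, 12.19, 11.93 and 12.04 scratched. The groups did not overlap in either genotype. Hmgcs1 rose by 0.50 ± 0.09 (limma adjusted p = 0.00676) in Mmp7-/-. The wild-type difference was 0.23 ± 0.09 (limma adjusted p = 0.194) on this probe set. The next brightest probe sets of the gene gave 0.31 (limma adjusted p = 0.0359) and 0.34 (limma adjusted p = 0.00159) in wild-type. Its dimmer ones gave 0.15 and 0.24 there and did not pass (limma adjusted p = 0.681 and 0.824).

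In the mevalonate segment, which turns HMG-CoA into isoprene units, Mvd and Idi1 rose in both genotypes. Mvd, the mevalonate diphosphate decarboxylase, read 5.25, 5.21, 5.23 and 5.34 in uninjured and 5.70, 5.91, 6.04 and 5.96 in scratched wild-type arrays. The Mmp7-/- arrays gave 5.18, 5.07, 5.02 and 5.21 uninjured and 6.11, 5.86, 5.85 and 5.57 scratched. Every scratched array was above every uninjured one. Its rise was 0.65 ± 0.10 (limma adjusted p = 0.00119) in wild-type and 0.73 ± 0.10 (limma adjusted p = 0.000843) in Mmp7-/-. The dimmer Mvd probe set gave 0.77 and 0.83 and did not pass (limma adjusted p = 0.11 and 0.0809). Idi1, the isopentenyl diphosphate isomerase, rose by 0.37 and 0.65 (limma adjusted p = 0.0422 and 0.00172). Its wild-type call was lost whichever 1 of the 8 wild-type arrays was left out (adjusted p up to 0.126). The dimmer Idi1 probe set gave 0.18 (limma adjusted p = 0.607) in wild-type and 0.52 (limma adjusted p = 0.0363) in Mmp7-/-. Mvk and Pmvk encode the kinases between Hmgcs1 and Mvd. Pmvk rose in Mmp7-/- by 0.47 ± 0.11 (limma adjusted p = 0.0216), a call lost without uninjured array 1 or 2 or scratched array 3 or 4 (adjusted p up to 0.0703). Mvk passed no test, and uninjured Mmp7-/- array 2 (6.20) stood above the other 15 arrays (5.04 to 5.89).

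The next steps join isoprene units into squalene and fold it into lanosterol. Fdft1, squalene synthase, read 9.20, 9.25, 9.18 and 9.18 in uninjured and 9.92, 9.71, 9.75 and 10.02 in scratched wild-type arrays. Mmp7-/- cultures read 9.33, 9.27, 9.23 and 9.17 uninjured and 9.69, 9.80, 9.81 and 9.91 scratched. The uninjured arrays of both genotypes were close together and under all scratched ones. Fdft1 rose by 0.64 ± 0.07 (limma adjusted p = 4.77e-05) in wild-type and 0.55 ± 0.07 (limma adjusted p = 0.000391) in Mmp7-/-, and neither call depended on 1 array. Fdps, farnesyl diphosphate synthase, rose in wild-type by 0.54 ± 0.13 (limma adjusted p = 0.0318), with overlapping arrays, and its Mmp7-/- estimate was 0.44 (limma adjusted p = 0.0802). Its wild-type call remained only without uninjured array 4 or scratched array 4, with adjusted p up to 0.098 otherwise. Lss, lanosterol synthase, rose by 0.35 (limma adjusted p = 0.0254) in wild-type and by 0.54 (limma adjusted p = 0.00218) in Mmp7-/-. The wild-type call was lost without 6 of the 8 arrays in turn, all but uninjured 4 and scratched 2 (adjusted p up to 0.083). The dimmer Lss probe set above background gave 0.21 and 0.52 and passed in neither genotype (limma adjusted p = 0.695 and 0.163). Sqle, squalene epoxidase, rose in Mmp7-/- by 0.37 (limma adjusted p = 0.00866); its wild-type estimate was 0.23 (limma adjusted p = 0.0868).

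The largest responses of the 33 genes in wild-type cultures came from enzymes that trim lanosterol. Tm7sf2, a sterol C14 reductase, read 7.02, 6.80, 6.67 and 6.85 in uninjured and 7.82, 7.91, 7.73 and 8.14 in scratched wild-type arrays. In Mmp7-/- arrays it read 7.01, 6.98, 7.22 and 7.0 uninjured and 7.72, 7.69, 7.62 and 7.65 scratched. Scratched wild-type arrays were above all scratched Mmp7-/- arrays, as for 28.5% of all genes, while the uninjured groups overlapped. The genotype difference in scratched cultures, -0.23 ± 0.09, did not pass (limma adjusted p = 0.154). The rise was 1.07 ± 0.09 (2.09-fold, limma adjusted p = 6.95e-06) in wild-type and 0.62 ± 0.09 (1.54-fold, limma adjusted p = 0.0013) in Mmp7-/-. The difference of -0.45 ± 0.12 between these responses had an unadjusted p of 0.00306 in limma and did not pass adjustment (adjusted p = 0.275).

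Hsd17b7, a sterol 3-keto reductase, read 7.18, 7.53, 7.42 and 7.30 in uninjured and 8.64, 8.39, 8.04 and 8.32 in scratched wild-type arrays. The Mmp7-/- arrays gave 7.07, 7.39, 7.0 and 7.14 uninjured and 7.78, 7.95, 8.26 and 8.21 scratched. No scratched array reached down to an uninjured one. The rise was 0.99 ± 0.13 (1.99-fold, limma adjusted p = 0.00054) in wild-type and 0.90 ± 0.13 (1.86-fold, limma adjusted p = 0.00198) in Mmp7-/-. Cyp51, the lanosterol 14-demethylase, and Msmo1, the C4 methyl oxidase, rose in Mmp7-/- by 0.53 and 0.57 (limma adjusted p = 0.00673 and 0.00866), with wild-type estimates of 0.33 and 0.35 (limma adjusted p = 0.0688 and 0.0871). The other probe set of Cyp51 above background rose in wild-type by 0.66 (limma adjusted p = 0.0344), with an Mmp7-/- estimate of 0.56 (limma adjusted p = 0.0802). The dimmer Hsd17b7 probe set above background gave 0.63 and 0.76 and passed in neither genotype (limma adjusted p = 0.323 and 0.193). Nsdhl, Sc5d and Dhcr7, of which Dhcr7 catalyses the last step to cholesterol, had estimates of 0.16 to 0.40 in both genotypes and did not pass.

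Ebp, the sterol isomerase that shifts a ring double bond, went the other way. It read 9.76, 9.84, 9.77 and 9.95 in uninjured and 9.38, 9.60, 9.43 and 9.5 in scratched wild-type arrays. Mmp7-/- cultures read 10.23, 10.10, 10.10 and 9.94 uninjured and 9.74, 9.89, 9.84 and 9.72 scratched. Scratched arrays were under uninjured ones in each genotype. Ebp fell by 0.35 ± 0.07 (limma adjusted p = 0.00675) in wild-type and fell by 0.30 ± 0.07 (limma adjusted p = 0.0217) in Mmp7-/-; the second call was lost without uninjured array 1, 2 or 3 or scratched array 1 or 4 (adjusted p up to 0.0637).

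In the fatty acid arm, 3 of 10 genes rose after scratching in each genotype and none fell. Among all genes, 2.55% were called higher and 2.3% lower in wild-type, and 2.27% and 2.45% in Mmp7-/-. The median difference of the 10 genes was 0.06 in wild-type and 0.33 in Mmp7-/-, beside 0.01 and -0.02 for all genes. All 4 scratched arrays lay above all 4 uninjured ones for 3 genes in each genotype, and below them for 1, Me1, in wild-type. Among all genes, 4.21% were separated upward and 5.82% downward in wild-type, and 4.1% and 8.72% in Mmp7-/-. Without the 3 arrays set apart, 1 rose in wild-type and 3 in Mmp7-/-. Fasn and Scd2 rose in both genotypes. Fasn, the fatty acid synthase that builds palmitate, read 8.71, 8.82, 8.49 and 8.76 in uninjured and 9.06, 8.92, 8.93 and 9.14 in scratched wild-type arrays. In Mmp7-/- arrays it read 8.27, 8.49, 8.44 and 8.52 uninjured and 8.91, 9.02, 9.06 and 9.06 scratched. Scratched arrays of the genotypes overlapped. Fasn rose by 0.32 ± 0.08 (limma adjusted p = 0.0286) and 0.58 ± 0.08 (limma adjusted p = 0.000746). The wild-type call was lost without uninjured array 1 or 3 or scratched array 1 or 4 (adjusted p up to 0.0744).

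Scd1 and Scd2 encode stearoyl-CoA desaturases, which put the first double bond into saturated chains; Scd2 rose in both genotypes and Scd1 in wild-type. Scd2 read 13.02, 13.19, 13.09 and 13.08 in uninjured and 13.57, 13.51, 13.49 and 13.37 in scratched wild-type arrays. The Mmp7-/- arrays gave 12.83, 12.97, 12.85 and 12.95 uninjured and 13.40, 13.45, 13.36 and 13.43 scratched. Scratched arrays were higher in both genotypes, by 0.39 ± 0.05 (limma adjusted p = 0.000256) and 0.51 ± 0.05 (limma adjusted p = 8.43e-05). The next brightest Scd2 probe set gave 0.41 and 0.58 and did not pass (limma adjusted p = 0.426 and 0.185). Scd1 read 9.44, 9.75, 9.49 and 9.70 in uninjured and 9.99, 9.84, 9.90 and 10.05 in scratched wild-type arrays. Mmp7-/- cultures read 9.49, 9.38, 9.74 and 9.76 uninjured and 9.23, 9.25, 9.40 and 9.40 scratched. Wild-type arrays were higher after scratching, whereas 3 of 4 uninjured Mmp7-/- arrays stood above all scratched ones and the remaining one (9.38) among them. The scratch difference was 0.35 ± 0.09 (limma adjusted p = 0.0473) in wild-type and -0.27 ± 0.09 (limma adjusted p = 0.123) in Mmp7-/-. The difference of -0.62 ± 0.13 between these responses did not pass (limma adjusted p = 0.105), although it passed with array weights (adjusted p = 0.0313) and with arrays centred on their medians (adjusted p = 0.0472). The wild-type call was lost without 7 of the 8 arrays in turn (all but uninjured 2; adjusted p up to 0.144), and the dimmer second probe set (mean 5.09) gave -0.03.

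**Figure D3:**
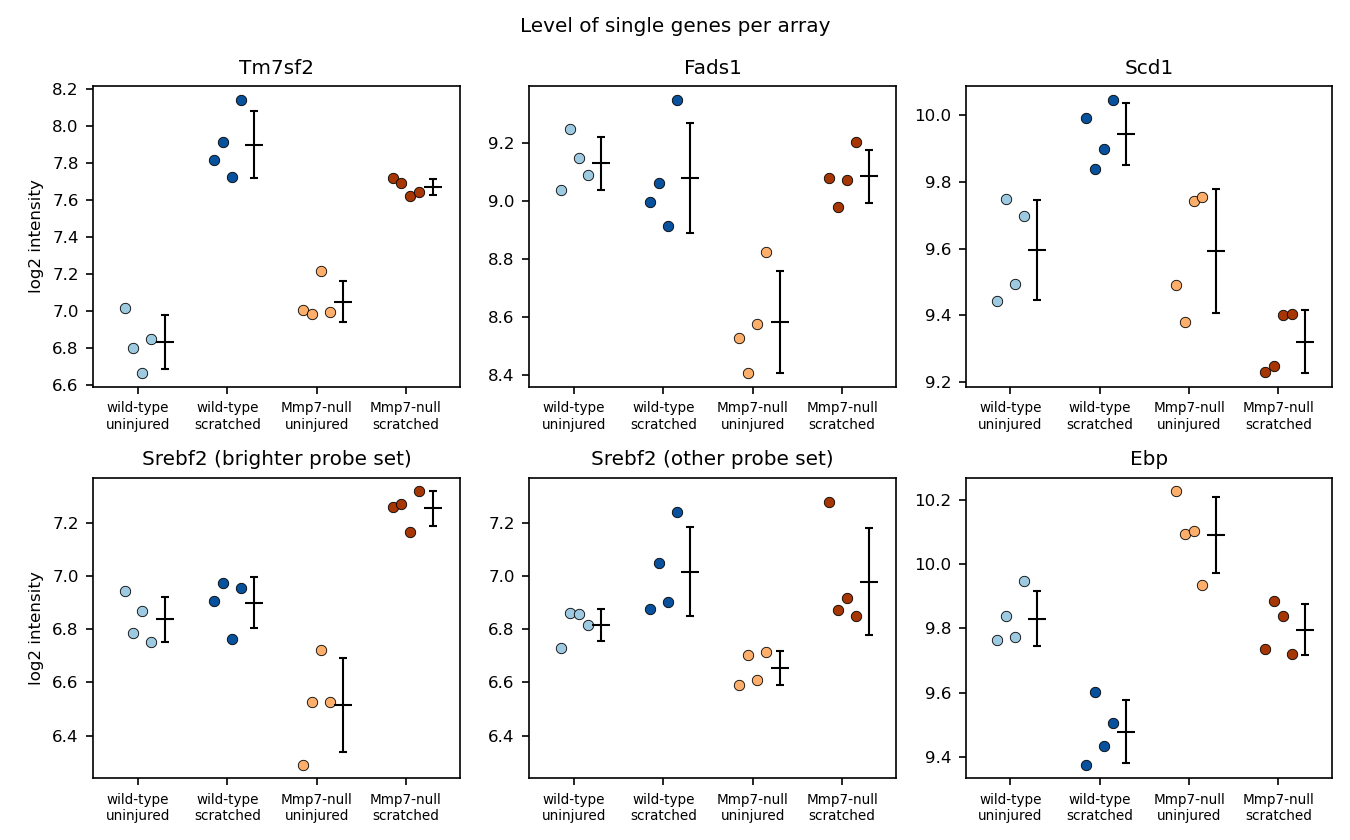
Log2 intensity of Tm7sf2, Fads1, Scd1, Srebf2 and Ebp on each array (y axis; points are arrays, bars are the group mean ± SD, n = 4), with both Srebf2 probe sets on one scale. Fads1 is lowest in uninjured Mmp7-/- arrays, Scd1 is highest in scratched wild-type arrays, and the wide span of Srebf2 in Mmp7-/- arrays on the brighter probe set is narrower on the other one.

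Fads1 and Fads2 encode desaturases that make polyunsaturated fatty acids. Fads1 read 9.04, 9.25, 9.15 and 9.09 in uninjured and 9.0, 9.06, 8.91 and 9.35 in scratched wild-type arrays. In Mmp7-/- arrays it read 8.53, 8.41, 8.58 and 8.82 uninjured and 9.08, 8.98, 9.07 and 9.21 scratched. The uninjured Mmp7-/- arrays were under the other 12, which shared one range. Fads1 rose after scratching in Mmp7-/- by 0.50 ± 0.10 (limma adjusted p = 0.00979); its wild-type estimate was -0.05, and the difference between the responses, 0.55 ± 0.14, did not pass (limma adjusted p = 0.187). The remaining genes, Acly, Acaca, Elovl5, Elovl6, Fads2 and Me1, passed no scratch test, with wild-type estimates of -0.19 (Me1) to 0.18 (Elovl6) and Mmp7-/- estimates of -0.09 (Elovl5) to 0.35 (Fads2).

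Between genotypes, several fatty acid genes were lower in uninjured Mmp7-/- cultures. Of the 10 fatty acid genes, 4 were lower and none higher in uninjured Mmp7-/- cultures, where 2.5% of all genes were called lower and 2.3% higher. The 4 were Scd2, Fads1, Fads2 and Me1, the last being malic enzyme, which supplies NADPH for synthesis. Estimates were under 0 for 9 of 10 genes, with a median of -0.27 against -0.01 for all genes. All 4 Mmp7-/- arrays were below all 4 wild-type ones for 5 of the 10 and above for none, against 6.22% and 5.44% of all genes. The sterol arm had a median of -0.04, and 1 of 18 genes, Ebp, was called, on the higher side (0.26 ± 0.07, limma adjusted p = 0.0396). That call was lost without any 1 of 6 of the 8 uninjured arrays (all but number 4 of each genotype; adjusted p up to 0.136).

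Fads1 was lower in uninjured Mmp7-/- cultures by a log2 difference of -0.55 ± 0.10 (limma adjusted p = 0.00552), with the array values given above. Me1 read 11.24, 11.34, 11.27 and 11.31 in uninjured wild-type arrays and 10.77, 10.82, 10.99 and 10.92 in uninjured Mmp7-/- arrays. These groups stood well apart, at -0.42 ± 0.07 (limma adjusted p = 0.0058), and the second Me1 probe set gave -0.43 (adjusted p = 0.023). Fads2 read 7.93, 7.82, 7.77 and 8.14 against 7.29, 7.33, 7.69 and 7.47, again without overlap (-0.47 ± 0.12, limma adjusted p = 0.033). Scd2 differed by -0.19 ± 0.05 (limma adjusted p = 0.0387). The next brightest Scd2 probe set gave -0.19 ± 0.20 and did not pass (limma adjusted p = 0.988). Acaca, the acetyl-CoA carboxylase that commits carbon to fatty acids, read 7.14, 7.24, 7.21 and 7.34 against 6.56, 6.74, 6.98 and 6.84, which do not overlap, and missed the threshold (-0.45 ± 0.13, limma adjusted p = 0.0554). The Fads2 call was lost without Mmp7-/- array 1, 2 or 4 or wild-type array 1 or 4 (adjusted p up to 0.116), and the Scd2 call without Mmp7-/- array 1 or 3 or wild-type array 2, 3 or 4 (adjusted p up to 0.135); the arm's count was 2 without Mmp7-/- array 1.

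These genotype calls moved with the spike-in sets. With a block for the set, none of the 4 fatty acid genes was called, where 57 genes were called in all. Their estimates under the block were -0.43 for Fads1, -0.35 for Me1, -0.44 for Fads2 and -0.20 for Scd2. Within the Phe arrays alone, where 1 wild-type array faces 2 Mmp7-/- arrays, they were -0.34, -0.28, -0.34 and -0.11, and none passed. The part of the sets in the genotype differences was otherwise not tested.

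In scratched cultures 3 of the 33 members differed between genotypes, against 6.21% of all genes (3.29% higher and 2.92% lower): Srebf2 and Ebp were higher in Mmp7-/- and Scd1 was lower. Scd1 differed by -0.62 ± 0.09 (limma adjusted p = 0.00122), with every scratched Mmp7-/- array under every scratched wild-type array, as for 28.5% of all genes. Ebp differed by 0.32 ± 0.07 (limma adjusted p = 0.0115), also without overlap, as for 4.19% of all genes on that side. The dimmer second probe set of Scd1 gave -0.17 ± 0.19 between scratched genotypes and did not pass (limma adjusted p = 0.578). With a block for the spike-in set no member was called (Scd1 -0.49, adjusted p = 0.0794; Ebp 0.40, adjusted p = 0.0648), and within the Phe arrays Scd1 alone passed (-0.67, adjusted p = 0.0418). Medians in scratched cultures were 0.03 for the sterol arm and -0.10 for the fatty acid arm, beside -0.04 for all genes.

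**Figure D4:**
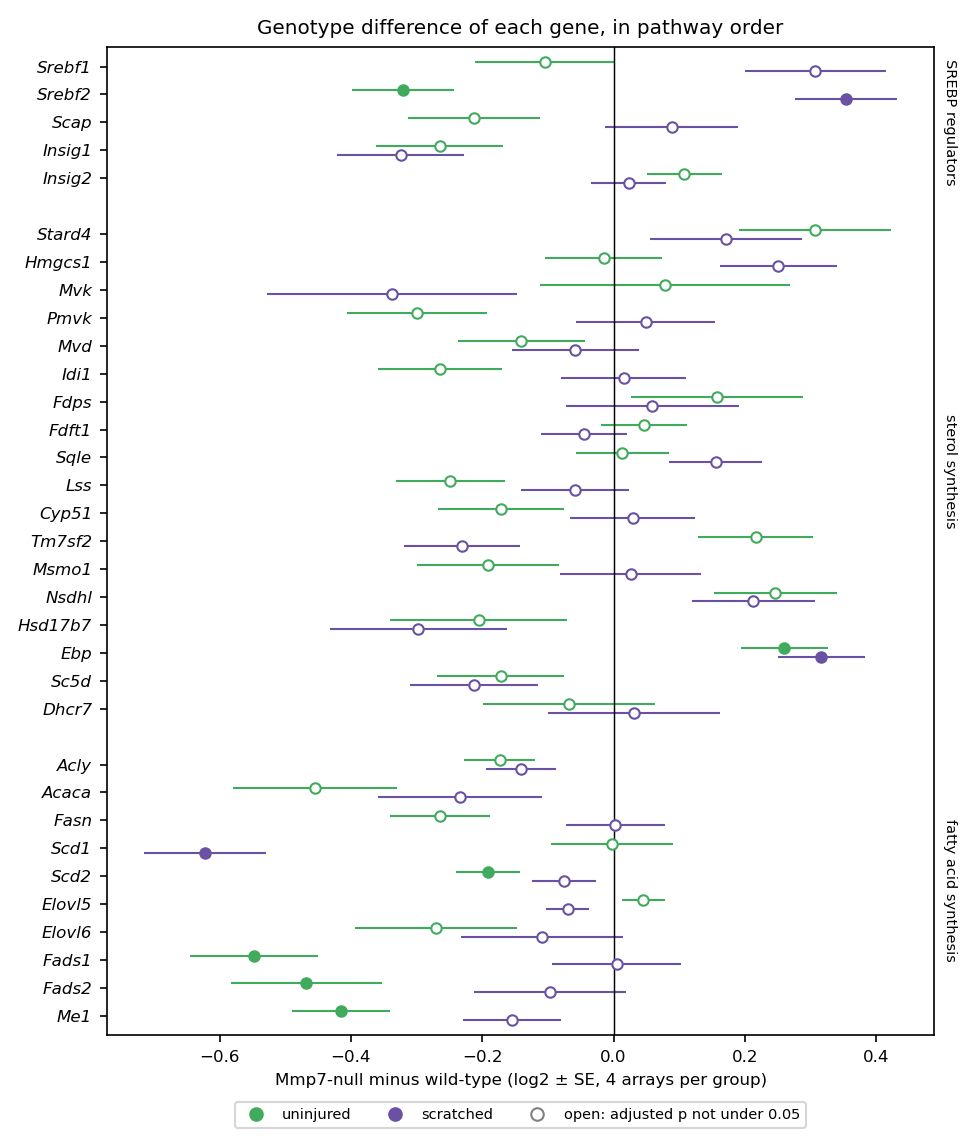
Genotype difference of the 33 genes in pathway order: the x axis is Mmp7-/- minus wild-type in log2 with its SE (4 arrays per group), green for uninjured and purple for scratched cultures, with filled points for adjusted p under 0.05. In uninjured cultures 9 of 10 fatty acid genes lie to the left of 0, while in scratched cultures Scd1 (-0.62) lies farthest to the left.

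Comparing the 2 responses over all members, 10 of 33 differences between the genotypes' scratch responses had an unadjusted p under 0.05 in limma (1417 of 18193 among all genes), and Srebf2 alone passed adjustment. Of 20 members that rose in either genotype, 9 rose in both: Insig1, Mvd, Idi1, Fdft1, Lss, Tm7sf2, Hsd17b7, Fasn and Scd2. That is 9 of the 12 that rose in wild-type and 9 of the 17 that rose in Mmp7-/-. Among all 18193 genes, 208 (1.14%) rose in both. These were 208 of the 464 that rose in wild-type and 208 of the 413 that rose in Mmp7-/-. For the 11 members called higher in 1 genotype, Srebf2 excepted, the responses were not shown to differ.

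Counts of related genes outside the list stand beside 2.55% of all genes called higher and 2.3% lower after scratching in wild-type, and 2.27% and 2.45% in Mmp7-/-. For the genotype difference these shares were 2.3% higher and 2.5% lower in uninjured Mmp7-/- cultures, and 3.29% and 2.92% in scratched ones. Of 9 other sterol and uptake genes measured, 1 rose in each genotype: Vldlr, a lipoprotein receptor, in wild-type (0.71 ± 0.15, limma adjusted p = 0.011), and Lrp8, another receptor of that family, in Mmp7-/- (0.74 ± 0.13, limma adjusted p = 0.00662). Of 14 further genes listed for SREBP regulation, Rnf145, a ubiquitin ligase of the endoplasmic reticulum, rose in both genotypes by 0.34 (limma adjusted p = 0.000645 and 0.00108). Pgrmc1 of the same list was lower in Mmp7-/- cultures, uninjured (-0.14, limma adjusted p = 0.0339) and scratched (-0.22, limma adjusted p = 0.00134). Of 29 further fatty acid synthesis genes, 3 rose and 2 fell in wild-type and 3 rose in Mmp7-/-. Lpin1, a phosphatidate phosphatase, rose in both, by 0.65 (limma adjusted p = 0.000369) and 0.44 (limma adjusted p = 0.00925), while Aacs, which activates acetoacetate for lipid synthesis, rose in Mmp7-/- (0.33, limma adjusted p = 0.0146). Hsd17b12, an enzyme of chain elongation, fell in wild-type by 0.54 (limma adjusted p = 0.0217). Between genotypes, 1 of the 29 was higher and 1 lower in uninjured Mmp7-/- cultures: Acsl3, an acyl-CoA synthetase of lipid droplets (0.41, limma adjusted p = 0.0375), and Fads3, a relative of the desaturases above (-0.33, limma adjusted p = 0.0121). In scratched cultures 2 were higher, Acsl3 (0.45, limma adjusted p = 0.018) and Hacd1 (0.32, limma adjusted p = 0.0241), and Lpin1 was lower (-0.39, limma adjusted p = 0.0141).

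Markers of other cells and of division moved with the same contrasts. Among all genes, 2.55% rose and 2.3% fell after scratching in wild-type, and 2.27% and 2.45% in Mmp7-/-. Between genotypes, 2.3% were higher and 2.5% lower in uninjured Mmp7-/- cultures, and 3.29% and 2.92% in scratched ones. Of 6 mitosis genes, 6 rose in wild-type and 4 in Mmp7-/- after scratching; the log2 of their summed intensity went from 9.39 to 9.66 in uninjured to 10.96 to 11.22 in scratched wild-type arrays, and from 9.8601 to 10.0005 to 10.58 to 10.84 in Mmp7-/- arrays. Of 4 goblet cell genes, Agr2 and Muc5b rose in both genotypes, and the summed level went from 9.25 to 9.53 to 11.96 to 12.11 in wild-type and from 9.19 to 9.96 to 10.90 to 11.48 in Mmp7-/-. Agr2 was lower in scratched Mmp7-/- than scratched wild-type cultures (-0.74, limma adjusted p = 0.00445). Of 5 basal cell genes, 2 fell in each genotype, Krt5 was lower in uninjured Mmp7-/- cultures (-0.36) and Krt14 was higher in scratched ones (0.53). Of 6 multiciliated cell genes, 5 were higher in Mmp7-/- cultures in each state, with summed levels of 12.46 to 12.75 against 11.81 to 11.97 uninjured and 12.55 to 12.73 against 11.63 to 11.89 scratched. Deup1 of this list fell after scratching in wild-type (-0.58) and in Mmp7-/- (-0.36). In uninjured cultures, 4 of 6 mitosis genes were higher in Mmp7-/-, and in scratched cultures 2 were lower. Among 5 fibroblast genes, Dcn rose after scratching in both genotypes (1.58 and 1.23) and was higher in uninjured Mmp7-/- cultures (0.9965), and the summed level ran from 5.37 to 5.71 in uninjured and 6.38 to 6.68 in scratched wild-type arrays, and from 5.79 to 6.47 and 6.96 to 7.22 in Mmp7-/- arrays. Among 5 leukocyte genes, Cd68 rose in wild-type (1.03) and was lower in scratched Mmp7-/- than scratched wild-type cultures (-0.92). The scratch response of Cd68 and of Agr2 also differed between genotypes (-1.12 and -1.10, limma adjusted p = 0.0434 for each). Summed leukocyte levels were 12.66 to 13.08 uninjured and 13.08 to 13.43 scratched in wild-type, and 12.65 to 13.09 and 13.12 to 13.44 in Mmp7-/-. Among 3 alveolar type 2 cell genes, Sftpc was higher in Mmp7-/- cultures (1.5 uninjured and 1.8 scratched) and Abca3 was lower in scratched ones (-0.43). Of 4 epithelial genes, Krt8 and Krt18 rose after scratching in both genotypes, and Cdh1 was lower in uninjured Mmp7-/- cultures (-0.23). Of 4 adipocyte genes measured, none was called in any comparison. The part of these shifts in the lipid gene results was not tested. In such bulk RNA, fewer cells of a type and less RNA per cell cannot be told apart.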

How the data were processed

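Labelled RNA from 16 cultures was hybridised to Affymetrix mouse arrays; the labels name the 430A 2.0 array, while the deposited table and its probe annotation are those of the larger 430 2.0 array. The authors deposited intensities on a linear scale, obtained with RMA per the submitters' processing notes, a method that corrects background, normalizes across arrays and condenses probes into 1 value (version not given in the sources used here). They were converted here to log2, with no further normalization. After 64 controls were removed, 34945 of 45037 probe sets had 1 symbol, 932 had several and 9160 had none. Each of 18193 genes was taken from its 1-symbol probe set of highest mean. Background (2.77) is the 95th percentile of control transcripts on arrays that lack them; 12562 genes (69.0%) lay above it.

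One limma 3.58.1 model in R 4.3.3 with a mean per group over 16 arrays (12 residual degrees of freedom, eBayes) gave 5 comparisons, each adjusted by the Benjamini-Hochberg method over 18193 genes. The script was tested on simulated data. The median SE was 0.10, or 0.14 for the difference between responses, and the number of arrays limits the precision. The text describes all listed members in all comparisons; the members and the lists of related genes and markers were chosen with earlier results of these data known. Alternatives were a replicate block, only the 8 arrays of a comparison, a filter on the dimmest 40% of genes, other rules for several probe sets, limma's trend and robust options, weights per array, a second quantile normalization, median centring, and each array left out. Also tried were a block for the spike-in set, each set alone, and leaving out 3 arrays set apart (wild-type scratched 3 and 4 and Mmp7-/- scratched 1, with the lowest upper quartiles or the widest actin 3′ to 5′ gap); fits of every member probe set were added after seeing the data.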

Additional observations from a re-analysis of the deposited data

Results flagged for a closer look

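Within groups of 4 arrays, 2 of 132 combinations of member and group had 1 array far from the rest. For Sqle in uninjured Mmp7-/- cultures, array 4 lay below the others, with a gap of 0.840 of the group's range. For Tm7sf2 in uninjured Mmp7-/- cultures, array 3 lay above the others, with a gap of 0.893 of the range. Chance gives such a gap in about 1 in 20 groups.

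The scratch response of Srebf2 was larger in Mmp7-/- than in wild-type cultures by 0.67 on the log2 scale on its brighter probe set and by 0.12 on the other, as described above.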

How the results depend on the processing

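Of 41 member results called, 40 kept their call without the dimmest 40% of genes, 40 with repeated quantile normalization, 39 with array weights, 38 with median centring and 37 with a trended and robust variance; 31 did so without the 3 arrays set apart, 30 with the mean of a gene's probe sets, 29 with a block for the spike-in set and 24 with the probe set of highest variance. With the 8 arrays compared, 25 of 40 did so; the difference between responses needs all 4 groups. Whether replicate numbers pair the cultures was not settled. Same-numbered arrays correlated at -0.25 to 0.32, and at most 4 of 8 arrays in a comparison correlated best with their own number. With so few arrays per group, and no animals in the labels, these values cannot decide it. With the replicate number as a block, 36 of 41 calls held, no sterol gene was called between uninjured genotypes (1 without it) and no member for the difference between responses (1 without it).

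Sterol genes higher after scratching in wild-type numbered 8, and 5 with the probe set of highest variance, 4 within the Trpn arrays and 1 within the Phe arrays. In Mmp7-/- they numbered 11, and 7 with the 8 arrays compared or with the probe set of highest variance, 5 within the Phe and 3 within the Lys arrays. Fatty acid genes higher in wild-type numbered 3, and 1 with the 8 arrays, the mean of probe sets, the probe set of highest variance, without the 3 arrays, or within the Trpn or Phe arrays. In Mmp7-/- they numbered 3, and 1 with the probe set of highest variance or within the Phe arrays, and 5 with array weights. Fatty acid genes lower in uninjured Mmp7-/- numbered 4, and 1 with the probe set of highest variance and 0 with the spike-in block or within the Phe arrays. Ebp, the 1 sterol gene called there, gave 0 also with the probe set of highest variance, the trended and robust variance, array weights, the spike-in block, without the 3 arrays and within the Phe arrays. Members called between scratched genotypes numbered 3, and 5 with array weights or median centring, 1 without the 3 arrays or within the Phe arrays, and 0 with the spike-in block. For the difference between responses the count was 1, and 2 with array weights or median centring, and 0 with the mean of probe sets, the trended and robust variance, the spike-in block, without the 3 arrays and within the Phe arrays.

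The median of the sterol arm was 0.27 with the mean of probe sets and 0.49 within the Phe arrays in wild-type, and 0.38 and, within the Lys arrays, 0.37 in Mmp7-/-. The fatty acid median in Mmp7-/- was 0.22 with the mean of probe sets and 0.21 with the probe set of highest variance. The shorter sterol element was found in 2 genes where the longer was found in 1.

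Adjusted over 34945 probe sets, the probe sets used for Idi1 and Scd1 did not pass after scratching in wild-type (limma adjusted p = 0.0591 and 0.066). Those used for Scd2 and Ebp did not pass between uninjured genotypes (limma adjusted p = 0.0537 and 0.0567). Some estimates changed sign with the probe set. Scd1 after scratching in wild-type was -0.0315 on its second probe set, which also has the highest variance. Scd2 in uninjured cultures was 0.0505 on its dimmest, which has the highest variance. Fads1 in uninjured cultures was 0.0079 on a probe set under background, and Srebf2 in scratched cultures was -0.0374 on its second. The cause was not tested.

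Leaving out 1 array at a time, sterol genes higher numbered 5 to 7 in wild-type (5 without uninjured array 1 or 3 or scratched array 1 or 3) and 10 to 12 in Mmp7-/-. Fatty acid genes higher numbered 1 to 3 in wild-type (1 without uninjured array 1 or 3 or scratched array 1 or 4) and 3 in Mmp7-/- throughout, and those lower in uninjured Mmp7-/- 2 to 4. Sterol genes called between uninjured genotypes numbered 0 to 1, members called between scratched genotypes 3 to 4, and members called for the difference between responses 0 to 1. The sterol median between scratched genotypes ran from -0.0061 to 0.0878, and the fatty acid median of the difference between responses from 0.137 to 0.270 (0.191 with all arrays).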

Other observations

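Lipid genes of storage, efflux, the isoprenoid branch and oxidation are given beside 2.3% of all genes called lower after scratching in wild-type and 2.45% in Mmp7-/-, and 2.5% lower in uninjured and 2.92% lower in scratched Mmp7-/- cultures than in wild-type. Of 11 storage and efflux genes measured, Mylip, a ubiquitin ligase that degrades lipoprotein receptors, fell by 0.41 in both genotypes after scratching (limma adjusted p = 0.00554 in wild-type and 0.00727 in Mmp7-/-). Cyp7b1, an oxysterol hydroxylase, was lower in uninjured Mmp7-/- cultures (-0.67 ± 0.15, limma adjusted p = 0.0238), and Nceh1, a cholesteryl ester hydrolase, was lower in scratched ones (-0.42 ± 0.10, limma adjusted p = 0.0193). Of 13 genes of the isoprenoid branch, Zmpste24, a protease that matures prenylated proteins, fell in Mmp7-/- by 0.30 (limma adjusted p = 0.0374), and none was called in wild-type. Of 19 fatty acid oxidation genes, Acaa2, a mitochondrial thiolase, fell in Mmp7-/- by 0.45 (limma adjusted p = 0.0139), and none was called in wild-type.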
